A study of Mus musculus with 8 samples.

Results

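The non-classical, or class Ib, genes of the major histocompatibility complex (MHC) were followed in epithelial cells released from the distal colon of mice, in mice with and without a targeted deletion of the nuclear receptor gene Rora. The 8 genes described are H2-T3, H2-T10, H2-T22, H2-T23, H2-Q1, H2-Q2, H2-Q4 and H2-M3. They were taken by symbol and are 8 of the 28 rows whose symbol starts with H2-T, H2-Q or H2-M, and 8 of 53379 genes in all. The set was chosen by family and symbol with earlier results from these same 8 libraries known, fold changes between the groups among them. Which comparisons guided the choice is not recorded, so the values of the 8 genes are given as a description in every comparison. No p-value is printed for them. Their calls, also where these held under alternatives, describe the same 8 libraries and are no independent test. All mice were on the C57BL/6 strain. The groups were RORaΔIEC mice, described as an intestine-specific Rora knockout (KO), and RORaf/f mice, which carry floxed Rora alleles (WT). Each genotype was treated with dextran sulfate sodium (DSS), which damages the lining of the colon, or was left untreated. DSS was given at 2% (w/v) in the drinking water for 5 days, with 3 days of water after it. The 4 groups, KO DSS, WT DSS, KO untreated and WT untreated, held 2 libraries each. The labels do not name the Cre driver of the deletion, and they do not say whether the 2 libraries of a group came from separate animals.

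Class I molecules are cell-surface proteins that consist of a heavy chain and, for most of them, beta-2 microglobulin. The classical heavy chains, H2-K and H2-D in the mouse, show peptides from inside the cell to T cells. The class Ib heavy chains are less variable between individuals, are often restricted to certain tissues and are read by specialised lymphocytes. H2-T3 encodes the thymus leukaemia (TL) antigen, which is made by intestinal epithelium and binds CD8αα on intraepithelial lymphocytes. H2-T10 and H2-T22 encode ligands of some γδ T cell receptors. H2-T23 encodes Qa-1, the counterpart of human HLA-E, which shows leader peptides of classical heavy chains to the CD94/NKG2 receptors of natural killer and T cells. H2-M3 encodes a molecule that shows N-formylated peptides of bacteria to T cells. H2-Q1, H2-Q2 and H2-Q4 lie in the Qa region.

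Totals of expected counts, the read numbers per gene estimated by the RSEM program, lay between 15971642 and 20418466 per library. Mitochondrial genes held 5.29% and 4.91% of the counts in KO DSS, 7.45% and 7.5% in WT DSS, 7.23% and 7.28% in KO untreated, and 8.05% and 7.75% in WT untreated. The KO DSS libraries stood apart from the 6 others in this share, and its part in the values of KO DSS given here, those of H2-T3, H2-T23, H2-Q2, H2-Q4 and the assembly genes among them, was not tested. Rora had 8 and 5 counts in KO DSS, 16 and 14 in WT DSS, 4 and 3 in KO untreated, and 12 and 6 in WT untreated. It was lower in KO than in WT with DSS (log2 fold change -1.24 ± 0.45 (SE), edgeR quasi-likelihood test, adjusted p = 0.0425) and did not pass the threshold without DSS (log2 fold change -1.10 ± 0.58, edgeR adjusted p = 0.238). All 14 epithelial markers had counts in every group. Their summed level was 23960 to 24770 counts-per-million (CPM) in KO DSS, 24510 to 24670 in WT DSS, 30530 to 30640 in KO untreated and 27200 to 27330 in WT untreated. Comparisons across all genes used edgeR's quasi-likelihood test on 14991 genes, and a gene is said to be called where its adjusted p was under 0.05.

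The class Ib genes covered a wide range of levels. In transcripts-per-million (TPM), a scale that allows for gene length, H2-T23 was the most abundant of the 8, with a mean of 189 TPM over the 8 libraries and a range of 175.9 to 205.7 TPM. H2-Q2 followed at 64.6 TPM (58.1 to 73.1), H2-T22 at 45.3 TPM (38.3 to 53.7) and H2-Q4 at 36.8 TPM (30.7 to 50.9). H2-M3 averaged 6.18 TPM (5.54 to 6.98), H2-T3 6.01 TPM (1.73 to 10.4), H2-Q1 3.78 TPM (3.14 to 4.63) and H2-T10 1.14 TPM (0.60 to 1.95). The ranges of H2-T22 and H2-Q4 overlapped, as did those of H2-T3 with H2-M3, H2-Q1 and H2-T10. The other neighbours in this order did not overlap. For scale, the classical genes H2-K1 and H2-D1 averaged 661.5 and 556.5 TPM. The 8 genes together made up 354 ± 6.2 TPM in KO DSS, 370 ± 1.0 in WT DSS, 353 ± 0.15 in KO untreated and 334 ± 1.5 in WT untreated (SD, n = 2 each). H2-T3 held between 0.495% and 2.95% of this sum in a library, and H2-T23 between 49.8% and 56.5%.

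**Figure D1:**
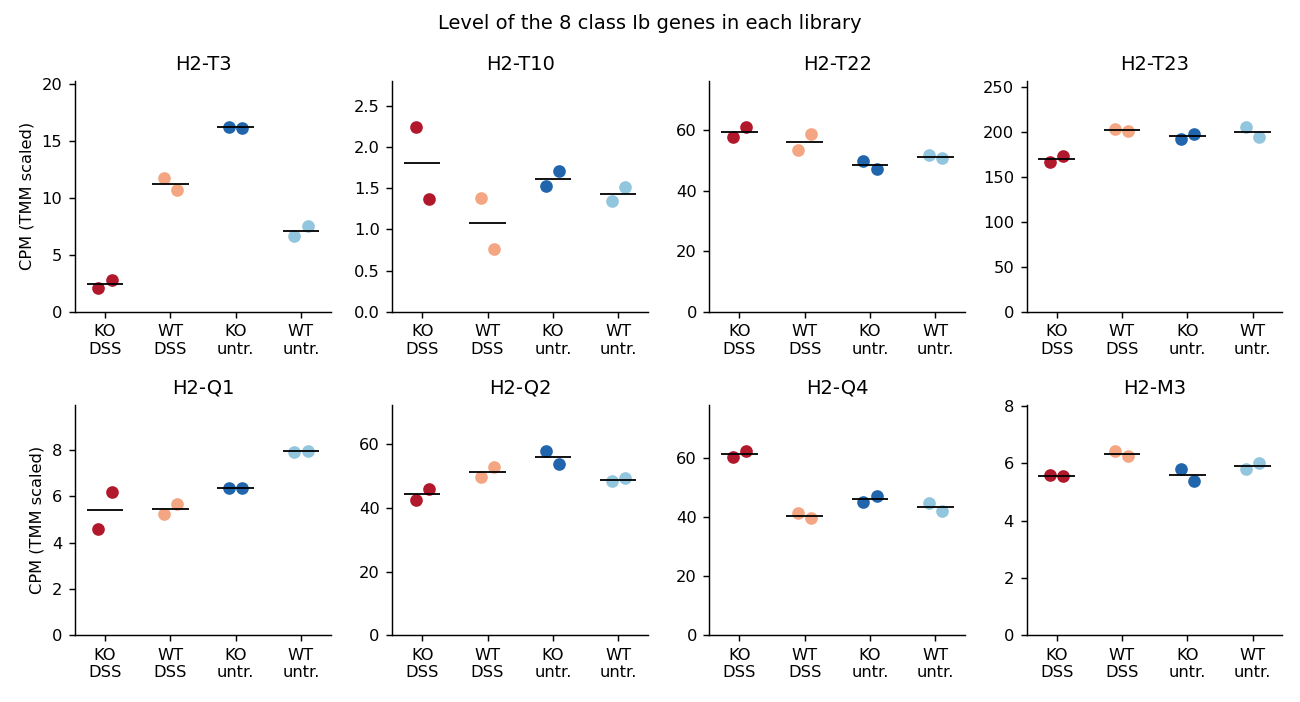
Level of each of the 8 class Ib genes in CPM after TMM scaling (vertical axes, each starting at 0) in the 4 groups (horizontal axis; untr., untreated). Points are the 2 libraries of a group and horizontal lines their mean; H2-T3 is lowest in KO DSS (2.07 and 2.80 CPM) and highest in KO untreated (16.2 and 16.2 CPM), while H2-M3 stays between 5.39 and 6.43 CPM.

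H2-T3 varied most among the 8. It had 2.07 and 2.80 CPM in KO DSS, 11.8 and 10.7 CPM in WT DSS, 16.2 and 16.2 CPM in KO untreated, and 6.61 and 7.56 CPM in WT untreated. These rest on 36 and 49 expected counts in KO DSS, 196 and 182 in WT DSS, 255 and 264 in KO untreated, and 132 and 135 in WT untreated. The 4 groups did not overlap, and each pair of replicates lay close together beside the gaps between groups. With DSS, H2-T3 was 4.60-fold lower in KO than in WT (log2 fold change -2.20 ± 0.15). Without DSS it stood the other way, 2.29-fold higher in KO than in WT (1.19 ± 0.12). In KO mice it was 6.62-fold lower with DSS than without (-2.73 ± 0.14). In WT mice it was 1.59-fold higher with DSS than without (0.67 ± 0.12). The DSS change in KO minus that in WT, the interaction, was -3.40 ± 0.19. The ratio of its highest to its lowest library was 7.82, and 2.06% of the 13184 genes that averaged 1 CPM or more had a ratio as large. Whether fewer cells carried H2-T3 transcripts or each cell carried less of them cannot be told apart in bulk RNA.

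H2-T3 lies on chromosome 17 from 36185572 to 36190287 on the minus strand of mm10, in the T region (GENCODE M21). GENCODE lists 10 transcripts for it, of which 3 are protein-coding. The deposited length of H2-T3, weighted by the abundance of its transcripts, was 1891 and 1975 bases in KO DSS, 2235 and 2230 in WT DSS, 2308 and 2184 in KO untreated, and 2170 and 2156 in WT untreated. It was thus shortest where the level was lowest, with the transcript estimates of KO DSS resting on the 36 and 49 counts. In TPM, which divides by this length, H2-T3 stood at 1.95 ± 0.31 in KO DSS, 7.45 ± 0.52 in WT DSS, 10.1 ± 0.40 in KO untreated and 4.48 ± 0.54 in WT untreated (SD, n = 2 each). With the deposited effective lengths as offsets in the fit, the log2 fold change of KO DSS against WT DSS was -1.98. Every H2-T3 count was a whole number, and 0.9% of the 50-base stretches of its transcripts occurred in transcripts of another gene, so few of its reads had to be shared out among copies.

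The upstream sequence of H2-T3 is shown beside those of 3 other members because the 4 genes had unlike profiles: H2-T22 and H2-T23 are neighbours on the chromosome, and H2-Q4 was the only member called higher in KO DSS than in WT DSS. Each is the 250 bases before the start of transcription from RefSeq (GRCm38.p6), written 5′ to 3′ on the gene's own strand, with capitals for the motif matches named below. The RefSeq starts of H2-T3, H2-T22 and H2-T23 lie inside the GENCODE bounds of these genes, so these windows reach into them. The windows are chr17:36190152-36190401 on the minus strand for H2-T3, chr17:36042743-36042992 on the minus strand for H2-T22, chr17:36032702-36032951 on the minus strand for H2-T23 and chr17:35379367-35379616 on the plus strand for H2-Q4.
H2-T3: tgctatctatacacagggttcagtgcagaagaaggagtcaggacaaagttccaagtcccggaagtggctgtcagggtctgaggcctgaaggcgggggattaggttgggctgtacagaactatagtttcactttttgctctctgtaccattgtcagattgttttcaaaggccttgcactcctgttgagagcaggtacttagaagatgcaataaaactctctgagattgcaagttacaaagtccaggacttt
H2-T22: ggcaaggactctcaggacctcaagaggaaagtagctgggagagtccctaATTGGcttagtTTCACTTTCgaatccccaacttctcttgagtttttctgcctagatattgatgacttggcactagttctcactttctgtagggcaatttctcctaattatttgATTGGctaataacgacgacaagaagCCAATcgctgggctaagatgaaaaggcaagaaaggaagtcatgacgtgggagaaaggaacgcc
H2-T23: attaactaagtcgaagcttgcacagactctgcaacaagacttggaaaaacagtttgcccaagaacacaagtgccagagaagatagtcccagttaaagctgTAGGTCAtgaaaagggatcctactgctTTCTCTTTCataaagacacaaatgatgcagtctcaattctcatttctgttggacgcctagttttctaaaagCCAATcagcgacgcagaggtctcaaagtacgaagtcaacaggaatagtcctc
H2-Q4: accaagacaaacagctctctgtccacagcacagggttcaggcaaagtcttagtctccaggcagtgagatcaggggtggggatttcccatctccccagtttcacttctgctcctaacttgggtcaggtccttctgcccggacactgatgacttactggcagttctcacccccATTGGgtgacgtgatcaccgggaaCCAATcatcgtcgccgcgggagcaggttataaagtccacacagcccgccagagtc

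Motifs were searched on both strands in windows of 300 bases, which run from 250 bases before to 50 bases after the start of transcription, for the 6 members with a window. They were an interferon response core (GAAANNGAA, in 8.56% of all 32851 promoter windows), a gamma-activated site (TTCNNNGAA, 8.30%), a kappaB core (GGGANTCCC, 0.767%), the core of the X2 box (TGACGC, 7.40%), the Y box (CCAAT, 37.4%) and a ROR half-site (TAGGTCA, 2.61%). No motif overlapped another within the 4 printed sequences. The H2-T3 window held none of the 6. The H2-T22 window held the interferon response core at -190 and Y boxes at -201, -88 and -63, counted from the start of transcription. The H2-T23 window held the interferon response core at -123, a Y box at -52 and the ROR half-site at -150. The H2-Q4 window held Y boxes at -79 and -55, and the X2 core at 31, downstream of the printed bases. Of the members not printed, H2-Q2 held a Y box at -81, and H2-M3 held the gamma-activated site at -209, the X2 core at -46 and Y boxes at -129, -36 and -21. A match is a description of the letters in these windows. The absence of one says nothing of binding elsewhere, nor of sites in these windows that are spelled otherwise than the patterns searched.

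H2-T22 and H2-T10, the genes for the γδ T cell receptor ligands, differed in level and in how firmly they were measured. H2-T22 had 57.6 and 61.0 CPM in KO DSS, 53.4 and 58.7 in WT DSS, 49.7 and 47.2 in KO untreated, and 51.7 and 50.7 in WT untreated. The KO DSS and WT DSS libraries overlapped, and all DSS libraries lay above all untreated ones. It was called in KO DSS against KO untreated, with a log2 fold change of 0.29 ± 0.06, and in WT DSS against WT untreated the value was 0.13 ± 0.06, which was not called. The interaction was 0.16 ± 0.08, also not called, so the DSS changes of the 2 genotypes are not shown to differ. H2-T10 had 2.24 and 1.37 CPM in KO DSS, 1.38 and 0.765 in WT DSS, 1.53 and 1.71 in KO untreated, and 1.35 and 1.51 in WT untreated. It rests on 13.2 to 38.8 expected counts per library, and was called in none of the 5 comparisons. Its largest log2 difference, KO DSS against WT DSS, was 0.75 ± 0.34, and the value was 1.06 and called without the second KO DSS library. H2-T22 lies on chromosome 17 from 36037128 to 36042747 and H2-T10, annotated as a polymorphic pseudogene in mm10, from 36115876 to 36121465, both on the minus strand. Of their 50-base stretches, 53.5% for H2-T22 and 50.4% for H2-T10 occur in another gene. The 2 genes share sequence with each other: 31.2% of the 50-base stretches of H2-T22 transcripts occur in H2-T10, and 31.7% of those of H2-T10 occur in H2-T22. Their expected counts were not whole in any library, so the split of reads between them is an estimate. An antisense gene, A930015D03Rik, overlaps both H2-T22 and H2-T23, holds 26.5% of the H2-T22 stretches and had at most 11.0 counts in a library. Another antisense gene, BC023719, overlaps H2-T10, holds 24.9% of the H2-T10 stretches and had 0.0 counts.

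H2-T23, which encodes Qa-1, was the most abundant and among the least variable. It had 165.7 and 172.4 CPM in KO DSS, 203.3 and 200.8 in WT DSS, 192.2 and 197.4 in KO untreated, and 204.9 and 193.6 in WT untreated. The KO DSS libraries lay below all 6 others, which overlapped between WT DSS and WT untreated and between KO and WT untreated. KO DSS was 1.20-fold lower than WT DSS (log2 fold change -0.26 ± 0.04) and 1.15-fold lower than KO untreated (-0.20 ± 0.05), and both were called. The values were -0.03 ± 0.04 for KO untreated against WT untreated and 0.02 ± 0.04 for WT DSS against WT untreated. The interaction was -0.22 ± 0.06 and was called, but the call was lost under 7 of 13 alternatives: DESeq2, effective length offsets, and leaving out either WT DSS library, either KO untreated library or the second WT untreated library (values over all 13 of -0.27 to -0.18). The gene lies on chromosome 17 from 36029773 to 36032855 on the minus strand, 4272 bases from H2-T22. Of its 50-base stretches, 14.5% occur in another gene. The neighbours H2-T22 and H2-T23 had log2 values of opposite sign in KO DSS against KO untreated, 0.29 ± 0.06 and -0.20 ± 0.05, and both were called.

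The 3 genes of the Qa region lie on the plus strand of chromosome 17, H2-Q1 from 35320405 to 35325099, H2-Q2 from 35342242 to 35346762 and H2-Q4 from 35379617 to 35385290. H2-Q4 had 60.5 and 62.4 CPM in KO DSS, 41.3 and 39.8 in WT DSS, 45.2 and 47.2 in KO untreated, and 44.8 and 42.1 in WT untreated. The KO DSS libraries lay above all others, and the other 3 groups lay between 39.8 and 47.2 CPM. KO DSS was 1.52-fold higher than WT DSS (log2 fold change 0.60 ± 0.06) and 1.33-fold higher than KO untreated (0.41 ± 0.06). The interaction was 0.51 ± 0.08, and these 3 calls held under every alternative run. Its values were 0.09 ± 0.06 for KO untreated against WT untreated and -0.10 ± 0.06 for WT DSS against WT untreated, and neither was called.

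Of the H2-Q4 stretches, 36.4% occur in another gene. The largest part, 15.3%, is shared with Gm11131, a gene annotated on the opposite strand over the same bases, and 9.7% is shared with H2-Q6. No strand setting is given in the sources used here, so reads of H2-Q4 and Gm11131 may not have been told apart. Gm11131 had 67.9 and 75.9 expected counts in KO DSS, 73.6 and 55.3 in WT DSS, 56.7 and 47.4 in KO untreated, and 60.4 and 44.8 in WT untreated, against at least 676.5 for H2-Q4. Gm11131 did not pass the threshold in any comparison, with a log2 fold change of 0.11 ± 0.20 for KO DSS against WT DSS (edgeR adjusted p = 0.706).

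H2-Q2 had 42.4 and 45.9 CPM in KO DSS, 49.7 and 52.6 in WT DSS, 57.8 and 53.8 in KO untreated, and 48.3 and 49.1 in WT untreated. The lowest libraries were those of KO DSS and the highest those of KO untreated, the same 2 extremes as for H2-T3 but over a much smaller range. This order is that of CPM: in TPM, H2-Q2 had 58.9 and 62.3 in KO DSS and 58.1 and 60.6 in WT untreated, so that these groups overlapped and WT untreated had the lower mean. Its log2 fold changes were -0.21 ± 0.06 for KO DSS against WT DSS, 0.20 ± 0.06 for KO untreated against WT untreated, -0.34 ± 0.06 for KO DSS against KO untreated and -0.41 ± 0.09 for the interaction, and all 4 were called. The call of KO untreated against WT untreated was lost under 9 of 14 alternatives, among them DESeq2 and leaving out any library of WT DSS, KO untreated or WT untreated (0.14 to 0.24 over all 14). That of KO DSS against WT DSS was lost by DESeq2 and without the first KO DSS or the second WT DSS library (-0.27 to -0.15 over all 14). It was 0.07 ± 0.06 for WT DSS against WT untreated, which was not called. H2-Q1 had 4.60 and 6.18 CPM in KO DSS, 5.23 and 5.65 in WT DSS, 6.35 and 6.37 in KO untreated, and 7.91 and 7.96 in WT untreated. It was highest in WT untreated, and the DSS groups overlapped. H2-Q1 was called in WT DSS against WT untreated, at a log2 fold change of -0.54 ± 0.15, and without the first WT DSS library the value was -0.49 and not called, nor was it called by DESeq2. It was -0.24 ± 0.15 for KO DSS against KO untreated, which was not called, and -0.47 and called without the second KO DSS library. Of the H2-Q1 stretches, 9.0% occur in H2-Q2 and, of those of H2-Q2, 12.9% occur in H2-Q1.

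H2-M3, which shows bacterial formyl peptides, had the smallest range of the 8 in CPM. It had 5.58 and 5.55 CPM in KO DSS, 6.43 and 6.24 in WT DSS, 5.78 and 5.39 in KO untreated, and 5.81 and 6.00 in WT untreated, or 88.0 to 116 expected counts per library. Its highest library was 1.19 times its lowest, a ratio that 86.8% of the genes averaging 1 CPM or more reached or passed. In TPM this ratio was 1.26 for H2-M3, above 1.17 for H2-T23 and close to that of H2-Q2. None of its 5 comparisons was called, and the log2 values ran from -0.19 ± 0.13 for KO DSS against WT DSS to 0.10 ± 0.13 for WT DSS against WT untreated. H2-M3 lies on chromosome 17 from 37270220 to 37274484 on the plus strand, 1079932 bases from H2-T3, and 0.6% of its stretches occur in another gene.

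**Figure D2:**
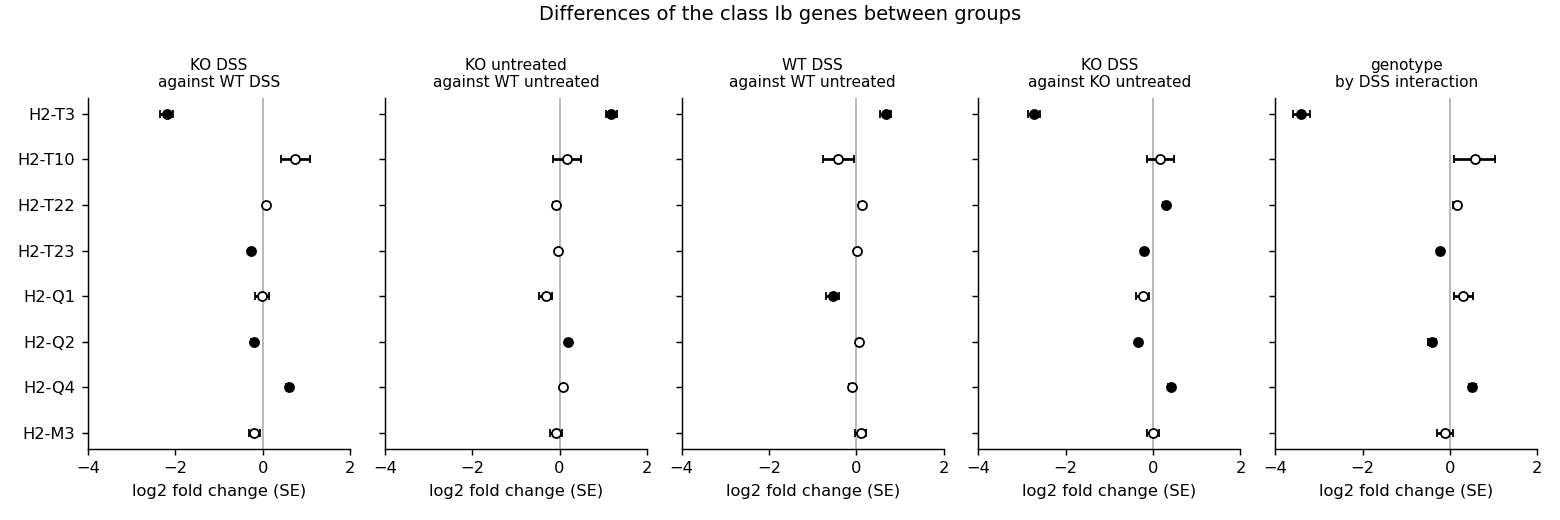
Log2 fold change of the 8 class Ib genes (horizontal axis, bars are SE and where not visible lie within the symbol) in the 5 comparisons, 1 panel each. Filled circles were called at an adjusted p under 0.05 and open circles were not; H2-T3 lies between -3.40 and 1.19 and the other 7 genes between -0.54 and 0.75.

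Across the 8 genes the calls went in both directions. In KO DSS against WT DSS, H2-Q4 was called higher and H2-T3, H2-T23 and H2-Q2 lower, which makes 4 of 8 where 39.1% of all genes were called (21.3% higher, 17.7% lower), with a median log2 fold change of -0.10 over the 8. In KO untreated against WT untreated, H2-T3 and H2-Q2 were called higher and none lower, which makes 2 of 8 where 15.4% of all genes were called (9.19% higher, 6.22% lower), with a median of 0.03. In WT DSS against WT untreated, H2-T3 was called higher and H2-Q1 lower, where 37.2% of all genes were called (18.9% higher, 18.3% lower), with a median of 0.05. In KO DSS against KO untreated, H2-T22 and H2-Q4 were called higher and H2-T3, H2-T23 and H2-Q2 lower, where 41.6% of all genes were called (21.7% higher, 19.8% lower), with a median of -0.10. For the interaction, H2-Q4 was called above 0 and H2-T3, H2-T23 and H2-Q2 below, where 21.4% of all genes were called (10.8% above, 10.6% below), with a median of 0.03. Over all genes tested the median lay between -0.01 and 0.01 in these comparisons. H2-T10 is also called in KO DSS against WT DSS without the second KO DSS library, H2-Q2 is lost without most single libraries in KO untreated against WT untreated, and H2-Q1 is lost without the first WT DSS library in WT DSS against WT untreated. Because the genes were chosen with such results known, nothing is read from these shares. The comparisons share groups, so their values are not independent of each other.

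Of the 20 other rows named H2-T, H2-Q or H2-M, 7 passed the filter on low counts: H2-Q5, H2-Q6, H2-Q7, H2-Q10, H2-T24, H2-M2 and H2-T-ps. Every call among them was higher. H2-Q7 is among the genes that encode Qa-2, a lipid-anchored class Ib protein of the Qa region. H2-Q7 had 15.4 and 18.7 CPM in KO DSS, 8.59 and 7.89 in WT DSS, 6.99 and 8.69 in KO untreated, and 4.26 and 3.87 in WT untreated. KO DSS was the highest group and WT untreated the lowest, and WT DSS and KO untreated overlapped. It was higher in KO than in WT with DSS (log2 fold change 1.05 ± 0.13, edgeR adjusted p = 1.34e-05) and without DSS (0.95 ± 0.16, edgeR adjusted p = 0.00111). It was higher with DSS than without in KO (1.12 ± 0.13, edgeR adjusted p = 6.38e-06) and in WT (1.02 ± 0.16, edgeR adjusted p = 0.000196). H2-Q6 rose in the same 4 comparisons, by 0.78 ± 0.19 to 0.93 ± 0.16, with edgeR adjusted p of 0.0003 to 0.0135. H2-Q6 and H2-Q7 are close copies, so the split of reads between them is uncertain. The interaction was 0.13 ± 0.25 for H2-Q6 and 0.10 ± 0.21 for H2-Q7, neither called, beside 0.51 ± 0.08 for H2-Q4 in the same region; the difference between these genes was not tested.

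Among the rest of these rows, H2-Q5 was higher with DSS in KO (1.17 ± 0.31, edgeR adjusted p = 0.00667) and in WT (0.89 ± 0.33, edgeR adjusted p = 0.0497). H2-Q10, which encodes a secreted class I protein, was higher in KO untreated than in WT untreated (0.84 ± 0.27, edgeR adjusted p = 0.0467). H2-T24 was higher in WT DSS than in WT untreated (0.96 ± 0.30, edgeR adjusted p = 0.0211). That makes 2 of 7 called in KO DSS against WT DSS, 3 in KO untreated against WT untreated, 4 in WT DSS against WT untreated and 3 in KO DSS against KO untreated. In the same order, 39.1%, 15.4%, 37.2% and 41.6% of all genes were called in these comparisons. The 3 in KO untreated against WT untreated became 1 without the second KO untreated or the first WT untreated library. The 4 in WT DSS against WT untreated became 2 without either WT DSS library or the first WT untreated library. For the interaction 0 of 7 were called by edgeR, where 21.4% of all genes were called. Of the 7, 0 had an unadjusted p under 0.05, and DESeq2 called 0.

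Among the classical heavy chains and the machinery that loads them, nearly all calls were higher, as the plot of KO against WT differences shows. All 16 genes of class I assembly and peptide supply were higher in KO DSS than in WT DSS, with a median log2 fold change of 0.48. Of all genes, 21.3% were called higher there. The peptide transporter subunit Tap1 was at 1.02 ± 0.06 (edgeR adjusted p = 7.68e-09), the immunoproteasome subunit Psmb8 at 1.16 ± 0.07 (1.18e-08) and the chaperone Calr at 0.57 ± 0.04 (4.99e-08). The common light chain B2m, which H2-T23 and H2-M3 also bind, was at 0.57 ± 0.05 (edgeR adjusted p = 2.95e-07). Without DSS, 11 of 16 were higher in KO than in WT and none lower (median 0.18), with Tap1 at 0.90 ± 0.06 (edgeR adjusted p = 2.16e-07), Psmb8 at 0.59 ± 0.07 (6.57e-05) and B2m at 0.37 ± 0.05 (0.000118), and 5 to 7 were called when any library of KO untreated or WT untreated was left out. In KO DSS against KO untreated 15 were higher and none lower (median 0.36), and in WT DSS against WT untreated 6 were higher and 1, Tapbpl, was lower (median 0.06). For the interaction 9 were above 0 and none below (median 0.25). Of all genes, 9.19% were called higher in KO untreated against WT untreated, 21.7% in KO DSS against KO untreated and 18.9% in WT DSS against WT untreated. For the interaction 10.8% of all genes were called above 0. H2-T23, whose protein shows leader peptides of classical heavy chains, was at -0.26 ± 0.04 in KO DSS against WT DSS, where H2-D1 was at 0.55 ± 0.04 and H2-K1 at 0.30 ± 0.04.

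**Figure D3:**
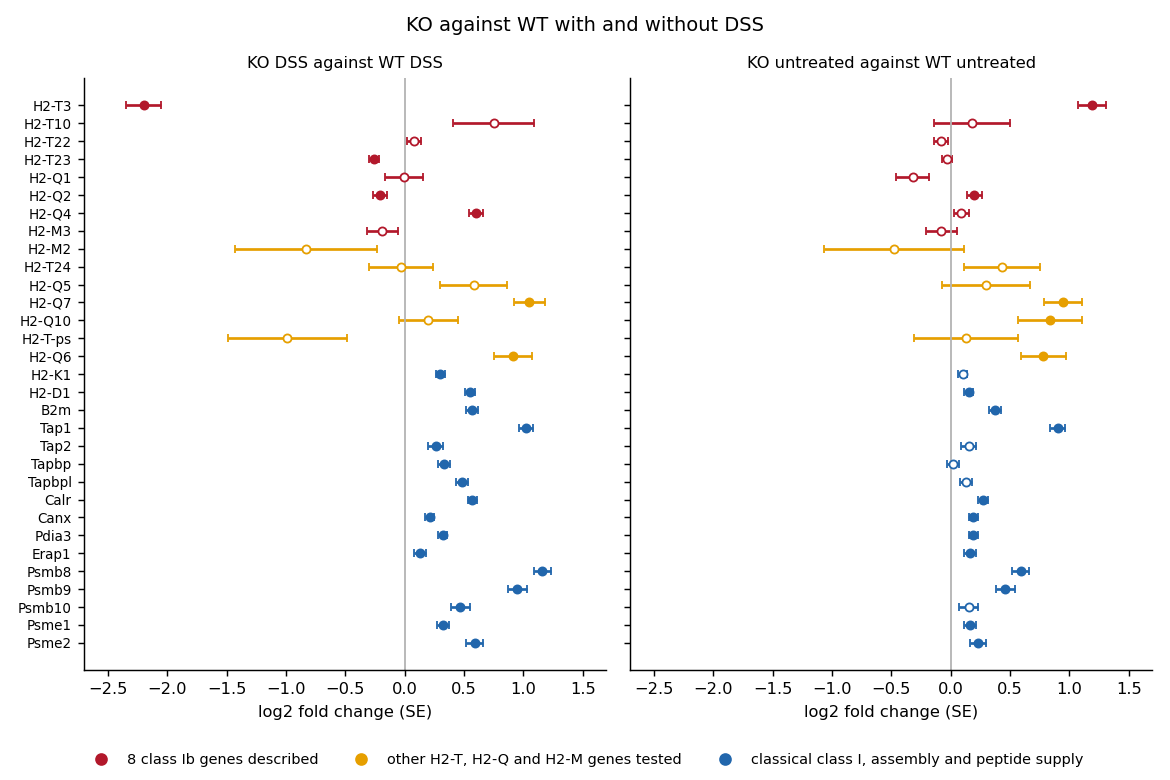
Log2 fold change (horizontal axes, bars are SE) of KO against WT with DSS (left) and without (right) for the 8 class Ib genes, the 7 other H2-T, H2-Q and H2-M genes that passed the filter, and the 16 genes of class I assembly and peptide supply. Filled circles were called and open circles were not; with DSS the 16 assembly genes all lie above 0, whereas H2-T3 lies at -2.20 and H2-Q4 at 0.60.

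Of the 29 regulators of class I transcription, 13 were higher and 3 lower in KO DSS than in WT DSS, with a median log2 fold change of 0.13, and 9 were called without the first WT DSS library. Nlrc5, the transactivator of class I genes, was at 1.49 ± 0.14 (edgeR adjusted p = 1.23e-06), and Socs3, an inhibitor of cytokine signalling, at 2.13 ± 0.07 (8.87e-11). Irf2, Relb and Rfx5 were the lower ones, at -0.31 ± 0.05, -0.16 ± 0.05 and -0.23 ± 0.08 (edgeR adjusted p of 0.000262, 0.0264 and 0.0301). Without DSS, 8 were higher and 3 lower in KO than in WT (median 0.06), the higher ones including Irf7 (0.44 ± 0.05, edgeR adjusted p = 2.34e-05) and Nlrc5 (1.23 ± 0.16, 0.000134). The lower ones were Irf2 (-0.34 ± 0.05, edgeR adjusted p = 0.000216) and the interferon gamma receptor chains Ifngr1 (-0.16 ± 0.04, 0.0234) and Ifngr2 (-0.17 ± 0.05, 0.0214). In WT DSS against WT untreated 6 were higher and 5 lower (median 0.07), and in KO DSS against KO untreated 13 were higher and 7 lower (median 0.13). Irf2, Relb, Rfxank and Nfya were lower with DSS in both genotypes, with Irf2 in WT the farthest from 0 (-0.60 ± 0.05, edgeR adjusted p = 3.97e-07). Ifngr1 was the other one lower with DSS than without in WT (-0.28 ± 0.04, edgeR adjusted p = 0.000165). In KO the others lower with DSS than without were Ciita, the transactivator of class II genes (-1.09 ± 0.17, edgeR adjusted p = 0.000148), Irf7 (-0.29 ± 0.05, 0.000184) and Il22ra1 (-0.40 ± 0.10, 0.00453). Against WT, Ciita was higher in KO with DSS (0.77 ± 0.21, edgeR adjusted p = 0.0108) and without it (1.32 ± 0.17, 0.00014). For the interaction 5 were above 0 and 1, the receptor subunit Il22ra1, was below (median 0.05). Of all genes, 21.3% were called higher and 17.7% lower in KO DSS against WT DSS, and 9.19% and 6.22% in KO untreated against WT untreated. These shares were 18.9% and 18.3% in WT DSS against WT untreated and 21.7% and 19.8% in KO DSS against KO untreated. For the interaction they were 10.8% above and 10.6% below 0. Of the 11 called in KO untreated against WT untreated, 6 were called without the first KO untreated library and 7 without the first WT untreated one. The 6 of the interaction became 2 or 3 without any library of WT DSS or KO untreated or the first of WT untreated. Nlrc5 was thus higher in KO with and without DSS, whereas H2-T3 was lower in KO with DSS and higher in KO without it.

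Of 16 class I-like genes outside the H2-T, H2-Q and H2-M regions, 8 passed the filter. For scale, 39.1% of all genes were called in KO DSS against WT DSS and 15.4% in KO untreated against WT untreated. The share was 37.2% in WT DSS against WT untreated, 41.6% in KO DSS against KO untreated and 21.4% for the interaction. In KO DSS against WT DSS 2 were higher and 2 lower (median 0.03): the protein C receptor Procr (3.00 ± 0.39, edgeR adjusted p = 3.15e-05) and the NKG2D ligand Raet1e (0.35 ± 0.08, 0.00433), and the neonatal Fc receptor Fcgrt (-0.51 ± 0.07, 3.02e-05) and Azgp1 (-1.54 ± 0.28, 0.000533). In KO untreated against WT untreated 2 were higher and 2 lower (median -0.21), the largest being the NKG2D ligand H60c at 1.48 ± 0.20 (edgeR adjusted p = 0.000157), with Fcgrt at -0.41 ± 0.07 (0.00106) and Raet1e at -0.40 ± 0.09 (0.00812) lower. DSS gave 3 higher and 2 lower in WT (median 0.20) and 3 higher and 3 lower in KO (median 0.08), and the interaction gave 1 above and 2 below 0 (median -0.05). The lower ones in WT were the NKG2D ligand Ulbp1 (-0.46 ± 0.15, edgeR adjusted p = 0.0228) and Hfe, which acts in iron uptake (-0.29 ± 0.10, 0.0312), and the interaction was above 0 for Raet1e (0.75 ± 0.12, 0.000742). The 4 calls of KO untreated against WT untreated became 2 without either KO untreated library or the first WT untreated library, and the 5 of WT DSS against WT untreated became 1 to 3 when any library of WT DSS or WT untreated was left out. Cd1d1, the lipid-presenting class I-like gene, was higher with DSS than without in KO (0.55 ± 0.13, edgeR adjusted p = 0.00371) and in WT (0.55 ± 0.12, 0.00304).

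Transcripts for the lymphocyte receptors of class Ib proteins were sparse. The exceptions, mostly in KO DSS, were the myeloid receptors Pirb and Lilrb4a, which the list also holds. Of 17 symbols listed, 16 are in the files, and 9 rows passed the filter, 2 of them under the symbol Lilrb4a. Cd8a, a chain of the TL antigen's partner, had 25 expected counts over both libraries in KO DSS, 29 in WT DSS, 15 in KO untreated and 28 in WT untreated. Klrd1, which encodes CD94, had 15 counts in KO DSS, 20 in WT DSS, 8 in KO untreated and 19 in WT untreated. Trdc, the constant region of the δ chain of γδ T cell receptors, had 21 in KO DSS, 12 in WT DSS, 7 in KO untreated and 12 in WT untreated. Cd8a and Klrd1 were called in no comparison, and Trdc did not pass the filter. The 3 rows called in KO DSS against WT DSS, all higher, were Pirb, a class I receptor of myeloid cells, and both rows of Lilrb4a, an inhibitory receptor of myeloid cells. Pirb had 197 counts in KO DSS and 33 in WT DSS (2.52 ± 0.27, edgeR adjusted p = 7.59e-06). The rows of Lilrb4a had 174 and 502 counts in KO DSS, and 16 and 100 in WT DSS. The same 3 rows were higher with DSS than without in WT and in KO. In WT, however, 1 row of Lilrb4a had 16 counts in WT DSS, all in the first library, and 0 in WT untreated (edgeR adjusted p = 0.0473), so that call rests on 1 library. The interaction was above 0 for Pirb and 1 row of Lilrb4a, and 0 of 9 were called in KO untreated against WT untreated, where 1 had an unadjusted p under 0.05 and DESeq2 called 0. Without the second WT untreated library 1 row was called for the interaction. The median log2 fold change over the 9 rows was -0.12 for KO DSS against WT DSS and -0.64 for KO untreated against WT untreated. It was 0.92 for WT DSS against WT untreated, 1.43 for KO DSS against KO untreated and 0.53 for the interaction. Of all genes, 39.1% were called in KO DSS against WT DSS and 15.4% in KO untreated against WT untreated. The share was 37.2% in WT DSS against WT untreated, 41.6% in KO DSS against KO untreated and 21.4% for the interaction.

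Levels of markers of other cell types differed between the groups too, and their part in the class Ib values was not tested. For 11 neutrophil markers the summed level was 304.2 to 328.9 CPM in KO DSS, 52.0 to 55.6 in WT DSS, 85.9 to 85.9 in KO untreated and 97.3 to 99.3 in WT untreated. In the untreated groups Ly6g alone made up 99.85% of it in KO and 99.92% in WT, and 8 markers in KO and 7 in WT, S100a8 and Mpo among them, were at 0. In WT DSS, Ly6g made up 80.8% of it, and Mpo, Ngp and Camp were at 0. Of 9 tested, 7 were higher in WT DSS than in WT untreated and 1, Ly6g, was lower, beside 18.9% and 18.3% of all genes. The lower sum in WT DSS was thus that of Ly6g, with means of 43.5 CPM in WT DSS and 98.2 in WT untreated. All 9 neutrophil markers tested were higher in KO DSS than in WT DSS, where 21.3% of all genes were called higher. For 14 macrophage and dendritic cell markers the sum was 180.2 to 190.5 CPM in KO DSS and 87.3 to 89.1 in WT DSS. It was 53.9 to 55.2 in KO untreated and 54.0 to 55.0 in WT untreated. Cd14 alone made up between 53.8% of it, in WT DSS, and 75.2%, in KO untreated, where Flt3 was at 0. Of 13 tested, 8 were higher in KO DSS than in WT DSS, beside 21.3% of all genes. In each genotype 12 were higher with DSS than without and 0 lower, where 18.9% of all genes in WT and 21.7% in KO were called higher. For 14 markers of intraepithelial and other T lymphocytes the sum was 13.8 to 13.9 CPM in KO DSS, 13.5 to 15.2 in WT DSS, 7.78 to 8.84 in KO untreated and 9.40 to 10.8 in WT untreated. None was at 0, and 0 of 8 tested were called in KO DSS against WT DSS by edgeR, with 0 at an unadjusted p under 0.05 and 0 called by DESeq2. In KO DSS against KO untreated edgeR called 4 of the 8 higher and 0 lower, where 21.7% of all genes were called higher. DESeq2 called 1 there. By edgeR 1 was higher in WT DSS against WT untreated, 1 was above 0 for the interaction, and 0 were called in KO untreated against WT untreated. DESeq2 called 0 in each of these, but left some of the 8 without an adjusted p.

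The sum of 11 absorptive colonocyte markers was 4520 to 4572 CPM in KO DSS, 5365 to 5396 in WT DSS, 8034 to 8042 in KO untreated and 7730 to 7811 in WT untreated, with none at 0. It was lowest in KO DSS and highest in KO untreated, as H2-T3 was, but it was lower in WT DSS than in WT untreated, where H2-T3 was higher. Not all markers followed the sum there: 8 of the 11 were lower and 3 higher, beside 18.3% and 18.9% of all genes. The largest single marker held between 22.4% of the sum, in WT DSS, and 25.6%, in KO untreated. Of the 11, 7 were lower and 2 higher in KO DSS than in WT DSS, where 17.7% of all genes were called lower and 21.3% higher. B and plasma cell markers summed to 6.56 to 8.36 CPM in KO DSS, 10.4 to 11.0 in WT DSS, 2.29 to 2.88 in KO untreated and 3.47 to 3.90 in WT untreated, over 9 markers with none at 0. Stromal and endothelial markers summed to 13.6 to 13.7 CPM in KO DSS, 7.75 to 8.89 in WT DSS, 13.2 to 14.5 in KO untreated and 11.0 to 12.8 in WT untreated. Of these 10 markers, Cdh5 was at 0 in KO DSS, and Pdgfra, Cdh5 and Kdr were at 0 in WT DSS.

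The genes whose profile lay nearest to that of a class Ib gene were found among 9827 genes. These averaged 5 CPM or more, except H2-T10, which was not ranked. Gene models without a proper symbol, ribosomal protein genes, and symbols ending in ps or in ps and digits, as pseudogenes often do, were left out. Nearness was the root mean square difference of log2(CPM + 1), centred on its mean over the 8 libraries. For H2-T3, whose own centred profile had a root mean square of 0.876, the nearest were Prkg2 (0.183), B3gnt6 (0.203), Adra2a (0.298), Fabp2 (0.314) and Mal (0.331). Prkg2 encodes a cGMP-dependent protein kinase, B3gnt6 a glycosyltransferase that extends mucin O-glycans, Adra2a an adrenergic receptor, Fabp2 the intestinal fatty acid-binding protein and Mal a protein of apical membrane transport. Prkg2 had 1.55 and 1.60 CPM in KO DSS, 6.67 and 8.66 in WT DSS, 9.72 and 9.43 in KO untreated, and 4.76 and 5.60 in WT untreated. B3gnt6 had 3.11 and 3.72 CPM in KO DSS, 16.1 and 14.2 in WT DSS, 15.8 and 16.4 in KO untreated, and 10.5 and 10.7 in WT untreated. Both had the H2-T3 order of groups by mean, with KO DSS at the bottom and KO untreated at the top, though the WT DSS and KO untreated libraries of B3gnt6 overlapped. Fabp2, which is also on the colonocyte list, averaged 34.4 CPM in KO DSS, 112.3 in WT DSS, 229.5 in KO untreated and 125.6 in WT untreated. In WT DSS against WT untreated the log2 fold change was 0.57 ± 0.15 for Prkg2, 0.52 ± 0.10 for B3gnt6, 0.20 ± 0.09 for Adra2a, -0.16 ± 0.05 for Fabp2 and -0.17 ± 0.11 for Mal, beside 0.67 ± 0.12 for H2-T3. These genes were picked for their likeness, so their values describe it and do not test it.

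**Figure D4:**
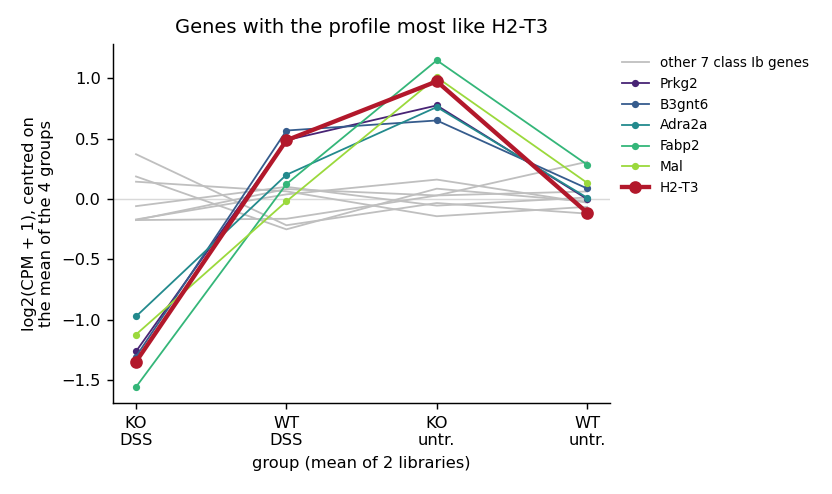
Mean level of each group (horizontal axis; mean of 2 libraries, untr., untreated) as log2(CPM + 1), centred on the mean of the 4 groups (vertical axis), for H2-T3 (red), the 5 genes nearest to it in profile and the other 7 class Ib genes (grey). H2-T3 and the 5 genes are lowest in KO DSS and highest in KO untreated, and the grey lines stay nearer to 0.

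The other 2 class Ib genes compared in this way had profiles of small range, and lay near other genes of small range. For H2-T23, whose profile had a root mean square of 0.106, the nearest were Nprl2 (0.026), Gtpbp8 (0.033), Lrrc66 (0.037), Map2k6 (0.037) and Slc1a5 (0.039). For H2-M3, with a root mean square of 0.0698, they were Senp6 (0.015), Mindy1 (0.024), Fam206a (0.026), Ube2q2 (0.026) and Erbb2 (0.027). H2-T23 and the 5 genes nearest to it all had their lowest group mean in KO DSS. H2-M3 and the 5 nearest to it all had their highest group mean in WT DSS. With a pseudocount of 0.25 in place of 1, the same 5 genes were named for each of the 3 class Ib genes.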

How the data were processed

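RNA sequencing tables of 8 libraries of distal colon epithelial cells were analysed, 2 per group. The deposited tables hold an expected count per gene, in which reads that map to several genes are divided among them by RSEM, and TPM values scaled by the authors' RSEM step for effective length, per the file headers. Tools listed in the submitters' processing notes are DESeq2 1.18.1, RSEM 1.3.0 and STAR 2.5.3a, with the build mm10; an annotation release and a strand setting are not given in the sources used here. Deposited gene lengths in bases are likewise the authors' RSEM values.

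After rounding, the expected counts were tested with edgeR 4.0.16 in R 4.3.3. After the default filterByExpr rule, 14991 genes were fitted in a single quasi-likelihood model of all 8 libraries with a mean per group, TMM factors and 4 residual degrees of freedom. Two-sided p-values were adjusted by the Benjamini-Hochberg method over all genes tested, with a threshold of 0.05. CPM are TMM scaled, and the SE of a log2 fold change is its size over the root of its F statistic. The labels do not say that libraries of a group are separate animals, so the spread between them, and with it every p-value, may be technical. Relative to counting error alone, the variance between the libraries of a group was 5.23 in KO DSS and 1.86 in WT DSS. In KO untreated it was 1.29 and in WT untreated 2.23. The fit shares its spread over the groups, so SE and adjusted p of comparisons with KO DSS, the interaction included, may be too small. Alternatives were DESeq2 1.42.0, RLE size factors, no filter, length offsets, a replicate block, fits of only the groups compared, and each library left out. The number of counts sets the precision: 3 counts in a library correspond to 0.150 to 0.191 CPM.

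Positions are from GENCODE M21 (99.8% of identifiers matched without their version, and all 8 members with it), and promoters from RefSeq (GRCm38.p6), where 6 of 8 members had an entry and H2-T10 and H2-Q1 had none. The members, gene lists and the rule for naming genes were chosen with earlier results of these data known. That rule named all 8 members, other H2-T, H2-Q and H2-M genes where called, up to 3 genes per list with the smallest p in the comparisons of KO with WT, list genes called against the majority, and the nearest profiles. A gene of the regulator list that this rule names is not reported here. B2m, H2-K1, H2-D1, Cd1d1, Nlrc5 where it was not among the first 3, Cd8a, Klrd1, Trdc and Gm11131 were named after their values were seen.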

Additional observations from a re-analysis of the deposited data

Results flagged for a closer look

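For 4 of the 8 class Ib genes the DSS change in KO differed from the DSS change in WT by the interaction term of the edgeR fit, in which 21.4% of all genes were called. The log2 difference was -3.40 for H2-T3, 0.51 for H2-Q4, -0.41 for H2-Q2 and -0.22 for H2-T23. The genes were chosen with such results known, so these values describe them.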

How the results depend on the processing

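Leaving out a library leaves its group with 1 library, which is then assumed to vary like the other groups. The calls of H2-T3, H2-T22, H2-Q4 and H2-M3 were the same under every alternative run. For the members, 557 alternative values were computed, of which 551 lay within the spread of the main value, 6 moved (all H2-Q1 in KO untreated against WT untreated, -0.34 to -0.32, where the 2 replicates of each group nearly coincide) and 0 reversed. Among the other genes 4674 values gave 282 calls lost, 47 gained and 2 values of opposite sign. Both were Hfe with effective length offsets: -0.54 in KO DSS against WT DSS, beside an uncalled 0.04, and an uncalled 0.03 in WT DSS against WT untreated, beside -0.29. The cause was not tested.

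Counts of called members over the left-out libraries were 3 to 5 in KO DSS against WT DSS, 1 to 2 in KO untreated against WT untreated, 1 to 2 in WT DSS against WT untreated, 5 to 6 in KO DSS against KO untreated and 3 to 4 for the interaction. In KO untreated against WT untreated DESeq2, no filter and length offsets each gave 1, as did DESeq2 in WT DSS against WT untreated. For the other H2-T, H2-Q and H2-M genes the left-out libraries gave 1 to 3 in KO untreated against WT untreated and 2 to 4 in WT DSS against WT untreated, and DESeq2 gave 1 and 2. For class I assembly and peptide supply they gave 5 to 13 in KO untreated against WT untreated, with 7 under length offsets, and offsets gave 5 for the interaction. For the class I-like genes they gave 2 to 4 in KO untreated against WT untreated, with 2 by DESeq2, and 1 to 5 in WT DSS against WT untreated, with 2 by DESeq2 and 3 under offsets. For the regulators of class I transcription they gave 9 to 16 in KO DSS against WT DSS (DESeq2 10), 6 to 12 in KO untreated against WT untreated, and 2 to 8 for the interaction (DESeq2 3). For the lymphocyte receptors they gave 1 to 2 for the interaction. The cause of these differences was not tested.

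Replicate numbers are shared by the groups, and the labels do not say whether they pair the libraries. The correlation of replicate differences was 0.307 between KO DSS and WT DSS. With WT untreated it was -0.267 for KO DSS and -0.244 for WT DSS, and the other pairs of groups lay between 0.002 and 0.059. With a replicate block, 4, 2, 2, 5 and 4 members were called in the 5 comparisons, as without it, and no list count moved by over 1.5 times. The block holds a replicate effect common to all groups, so an effect within the DSS groups alone was not tested. In TPM the order of group means was that in CPM for 6 of 6 pairs in H2-T3, H2-T10 and H2-T22, for 5 in H2-T23, H2-Q1, H2-Q2 and H2-Q4, and for 4 in H2-M3. With H2-T10 and H2-T22 summed to 1 row, the value for KO DSS against KO untreated was 0.29, and a row of H2-T9 was not used here. H2-T10 and H2-Q1, with the fewest counts, allow the least firm statements.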
